A study of Mus musculus with 14 samples.

Results

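The genes that sort membrane proteins into multivesicular bodies were followed in 3T3-L1 cells, a mouse cell line of fibroblast-like preadipocytes that turn into fat cells under hormone treatment. The list holds 38 genes of the ESCRT complexes, their partners and the HOPS complex, out of the 18193 genes with a named probe set on the arrays. The rule names them by function: 3 genes of ESCRT-0, 7 of ESCRT-I, 3 of ESCRT-II, 11 of ESCRT-III, 3 of the VPS4 group, 2 adaptors with a Bro1 domain, 3 endosomal Rab GTPases and 6 of HOPS. All 38 had a probe set, and for the 26 with several, the brightest on average over the 14 arrays was used. The cells carried lentivirus encoding a scrambled siRNA sequence (Control) or one against TP53INP2 (KD TP53INP2), so every group, controls included, had been transduced. RNA was taken from preadipocytes at day 0, 2 days past confluence, with 3 arrays of control and 3 of knockdown cells, and from cells kept in differentiation medium until day 7, with 4 arrays of each. The labels name the tissue as adipose and the cells as preadipocytes or adipocytes, but all come from 1 cell line. The labels do not say whether the replicates were separate cultures. The p-values below therefore reflect the spread among these samples, and that spread may be technical. The loss of TP53INP2 cannot be told apart from other effects of the knockdown virus, its siRNA sequence included, or of the derivation of the cells.

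ESCRT complexes act one after another on the surface of endosomes. ESCRT-0 holds proteins tagged with ubiquitin, ESCRT-I and ESCRT-II gather them under a budding membrane, and ESCRT-III filaments with the ATPase VPS4 cut the bud off into the endosome, which becomes a multivesicular body. The HOPS complex and RAB7 then bring that body, or an autophagosome, to the lysosome, while RAB27 proteins lead it to the cell surface, where its vesicles leave as exosomes. TP53INP2 is known as a protein of autophagosome formation and as a coactivator of nuclear receptors.

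Promoter sequences are shown for some of the members that the RefSeq promoter table (GRCm38.p6) holds. Hgs and Vps41 were lower in knockdown cells at day 7, and Rab27a and Vps18 had the largest changes with differentiation. Vps16 and Vps33a are a pair of HOPS subunits not called for the knockdown on either day. Both of that pair hold CACGTG, and other called members with a window are not printed, so the printed set does not stand for the list. Each window runs from 250 bases before to 50 after the annotated start, 5′ to 3′ on the gene's strand. Capitals mark CACGTG and CCGGAAG, in either orientation. Vps37b and Snf8 were not matched in the table. Rab27a has 2 windows.
Hgs, chr11:120467385-120467684, plus strand: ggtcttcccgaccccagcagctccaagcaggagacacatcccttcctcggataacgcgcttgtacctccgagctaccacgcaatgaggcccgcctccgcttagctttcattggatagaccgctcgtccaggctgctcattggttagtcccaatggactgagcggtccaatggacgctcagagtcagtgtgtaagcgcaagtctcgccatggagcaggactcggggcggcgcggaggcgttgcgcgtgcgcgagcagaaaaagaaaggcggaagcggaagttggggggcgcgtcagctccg
Rab27a, chr9:73044560-73044859, plus strand: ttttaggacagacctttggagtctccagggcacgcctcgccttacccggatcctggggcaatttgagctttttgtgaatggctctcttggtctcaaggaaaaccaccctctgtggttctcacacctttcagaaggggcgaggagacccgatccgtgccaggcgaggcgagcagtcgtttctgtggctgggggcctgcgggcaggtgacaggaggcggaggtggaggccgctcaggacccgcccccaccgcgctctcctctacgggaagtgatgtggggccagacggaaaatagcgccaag
Rab27a, chr9:73063898-73064197, plus strand: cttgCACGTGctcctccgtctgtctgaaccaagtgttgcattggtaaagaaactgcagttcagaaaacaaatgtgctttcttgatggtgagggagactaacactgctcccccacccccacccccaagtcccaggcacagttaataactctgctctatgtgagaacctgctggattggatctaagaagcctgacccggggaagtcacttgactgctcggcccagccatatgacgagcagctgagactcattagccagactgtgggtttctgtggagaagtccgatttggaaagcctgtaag
Vps18, chr2:119288492-119288791, plus strand: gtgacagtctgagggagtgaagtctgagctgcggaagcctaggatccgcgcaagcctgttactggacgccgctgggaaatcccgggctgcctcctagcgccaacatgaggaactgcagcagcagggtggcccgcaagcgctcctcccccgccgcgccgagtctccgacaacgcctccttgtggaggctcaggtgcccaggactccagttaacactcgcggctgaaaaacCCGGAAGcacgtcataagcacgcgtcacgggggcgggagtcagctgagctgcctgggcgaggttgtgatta
Vps41, chr13:18717042-18717341, plus strand: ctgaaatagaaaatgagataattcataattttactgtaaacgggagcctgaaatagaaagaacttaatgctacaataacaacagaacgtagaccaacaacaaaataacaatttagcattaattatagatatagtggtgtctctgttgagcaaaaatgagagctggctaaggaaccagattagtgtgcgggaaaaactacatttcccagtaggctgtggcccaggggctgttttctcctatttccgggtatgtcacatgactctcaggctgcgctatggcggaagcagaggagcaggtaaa
Vps16, chr2:130424070-130424369, plus strand: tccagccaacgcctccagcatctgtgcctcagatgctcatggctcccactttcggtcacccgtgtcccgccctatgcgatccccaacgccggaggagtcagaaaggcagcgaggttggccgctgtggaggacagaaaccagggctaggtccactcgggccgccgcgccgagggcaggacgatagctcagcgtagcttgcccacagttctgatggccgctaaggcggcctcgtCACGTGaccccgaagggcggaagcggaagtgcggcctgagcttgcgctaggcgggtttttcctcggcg
Vps33a, chr5:123572966-123573265, minus strand: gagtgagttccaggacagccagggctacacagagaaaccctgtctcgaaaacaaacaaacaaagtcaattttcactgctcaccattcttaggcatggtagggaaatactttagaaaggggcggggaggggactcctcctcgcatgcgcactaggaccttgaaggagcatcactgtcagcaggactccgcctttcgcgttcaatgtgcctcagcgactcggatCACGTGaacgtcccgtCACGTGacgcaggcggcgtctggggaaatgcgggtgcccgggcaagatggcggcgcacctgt
Of the 38 members 27 matched, with 31 windows of 300 bases. In all 7 motifs were counted, each on both strands and without regard to position. CACGTG, an E-box, was in the promoter of 4 of the 27 members (Pdcd6ip, Rab27a, Vps16 and Vps33a; 14.8%), against 8.09% of 27025 genes in the table. The longer form TCACGTGA, which contains CACGTG, was in 3 of them (11.1%, against 1.12%), and Vps33a held 2 copies. CCGGAAG, an ETS core, was in 9 members (33.3%, against 9.93%), Vps18 among those printed. GGGCGG, a GC box, was in 17 (63%, against 38.2%) and CATGTG, another E-box, in 4 (14.8%, against 15.9%). TATAAA was in 2 (7.41%, against 15.7%), and TTGCGCAA in 0 (against 0.207%). These are matches of letters in a window, given as a description with no test.

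Trp53inp2 itself was lower in the knockdown arrays on both days. At day 0 it stood at 12.45, 12.53 and 12.38 in controls and 11.06, 11.14 and 11.66 in knockdown arrays, a log2 difference of -1.17 ± 0.15 (SE, n = 3 per group; adjusted p = 0.00205 in the limma fit). At day 7 it stood at 11.74, 11.77, 11.78 and 11.70 in controls and at 10.20, 10.06, 10.01 and 10.45 in knockdown arrays (-1.57 ± 0.13, n = 4; adjusted p = 0.000111). All values are log2 expression values as deposited, listed by replicate number. Means of the 5 fat cell markers measured, per array, were 7.54 to 8.95 at day 0 and 10.18 to 12.18 at day 7, with all 5 called higher in both kinds of cell, and those of 6 fibroblast markers were 13.09 to 13.21 at day 0 and 11.90 to 12.88 at day 7. Blood, endothelial, muscle and epithelial marker means lay between 2.97 and 4.65, with single genes up to 7.12 in an array. With differentiation 1 of 4 muscle markers was called higher and 1 of 4 endothelial markers lower in each kind of cell. At day 7 1 of 4 muscle markers was called higher in knockdown than in control cells. Fat marker means at day 7 were 11.40, 11.49, 10.18 and 10.41 in controls and 11.95, 11.88, 11.14 and 12.18 in knockdown arrays, so knockdown replicate 3 lay below controls 1 and 2. Arrays numbered 1 and 2 lay closest together in every group: at day 7 their values differed with an SD of 0.097 in control and 0.132 in knockdown cells over the brighter genes, against 0.24 to 0.476 for other pairs of arrays. They were kept as separate samples, and a fit with their mean as 1 sample was made too.

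At day 7 knockdown cells had less mRNA of Hgs, the ubiquitin-binding subunit of ESCRT-0, and of Vps41, a HOPS subunit, and more of Vps37b of ESCRT-I and Snf8 of ESCRT-II. Hgs was at 78.6% of its control level, Vps41 at 79.6%, Vps37b at 137% and Snf8 at 126.1%. A gene was called changed at an adjusted p under 0.05 (limma, Benjamini-Hochberg over all 18193 genes). These 2 higher and 2 lower calls among 38 compare with 3.01% of all genes called higher and 3.57% called lower. With arrays 1 and 2 averaged none of the 4 passed (limma, adjusted p up to 0.286; 0.352% of all genes were called), and with the replicate number as a block all 4 did, where 14.7% of all genes were called against 6.58% without it. The members' median change was 0.04, against -0.02 over all genes, and ran from -0.35 (Hgs) to 0.47 (Rab27b, not called). Without regard to the test, 23 members were above 0 and 15 below.

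At day 0 none of the 38 passed (limma). With no adjustment 7 had a p under 0.05, as did 15.4% of all genes, and the lowest adjusted p was 0.141. Over all genes 0.467% were called higher and 1.34% lower. With the replicate block 0 members and 4.64% of all genes were called. The members' median difference was -0.04, against -0.05 over all genes. With all arrays shifted to 1 median, the calls over all genes moved from 85 higher and 243 lower to 74 higher and 439 lower (2.82% in all), and Vta1 passed among the members (-0.34, adjusted p = 0.0495, with a range of 0.0495 to 0.629 over its 24 alternatives). Knockdown and control arrays did not overlap for 12 members at day 0, 3 of them higher (Chmp1b, Vps16 and Vps33a) and 9 lower (Stam, Vps25, Vps36, Chmp2b, Chmp5, Chmp6, Ist1, Vta1 and Vps41). That was so of 22.6% of all genes, which is the background for this count. At day 7 the groups were apart for 9 members, against 13% of all genes. Vps37b, Snf8, Chmp3, Rab27a, Vps16 and Vps33a lay higher and Hgs, Mvb12b and Vps41 lower. Vps16 and Vps33a lay above the controls on both days and Vps41 below them on both. The share of all genes apart in the same direction on both days was not counted, so this has no background. Vps16 and Vps33a were called on neither day (limma, lowest adjusted p = 0.0816, Vps16 at day 7). For 0 of the 38 members did the effect of the knockdown differ between the days by the test of that difference (limma, lowest adjusted p = 0.182; 4 at an unadjusted p under 0.05, as were 13.2% of all genes), which called 0.022% of all genes, and 1.08% and 0 members with the block. The members' 95% intervals reached a median of 0.20 to either side of the change at day 7 and 0.23 at day 0, which limits the changes that could be detected.

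**Figure D1:**
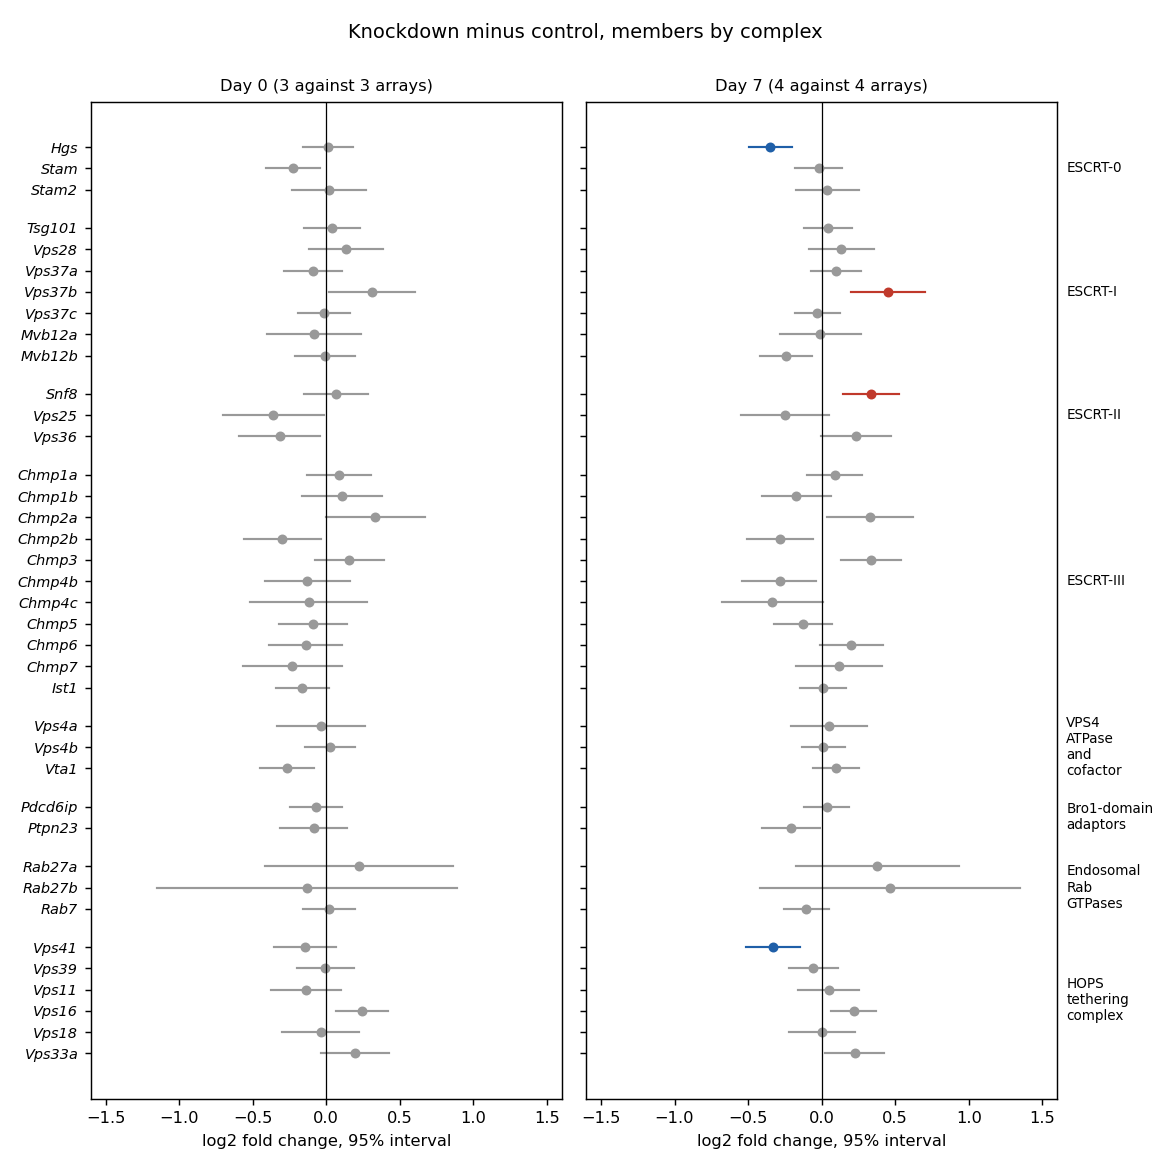
Log2 difference of knockdown minus control (x axis) with its 95% interval for the 38 genes (y axis, grouped by complex) at day 0, 3 against 3 arrays, and day 7, 4 against 4. Blue points are called lower, red points called higher and grey points not called; Hgs and Vps41 are blue and Vps37b and Snf8 red at day 7, and every point is grey at day 0.

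**Figure D2:**
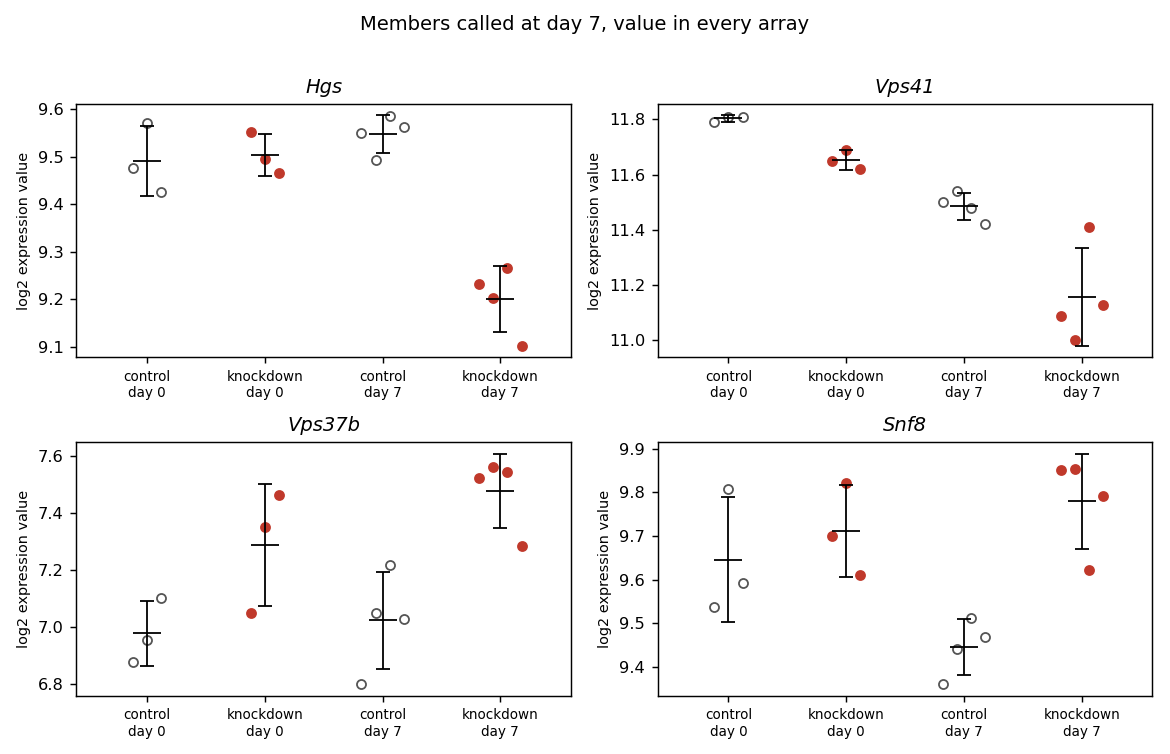
Log2 expression value (y axis) in every array of the 4 groups (x axis) for the genes called at day 7; open points are control arrays, filled points knockdown arrays, bars the mean ± SD (3 arrays per group at day 0, 4 at day 7). Each panel has its own scale. At day 7 the filled points of Hgs and Vps41 lie below the open ones, and those of Vps37b and Snf8 above.

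Differentiation moved many more of these genes, and mostly down. In control cells 16 of the 38 fell from day 0 to day 7 and 1, Vps36, rose; over all genes 12.8% fell and 10.1% rose. In knockdown cells 18 fell and 2, Vps36 and Chmp6, rose, where 16.8% of all genes fell and 19% rose. The median member changed by -0.22 in control and by -0.21 in knockdown cells, against -0.01 and 0.01 over all genes. By the brightest probe sets, 5 of 6 HOPS subunits fell in both kinds of cell. The core subunits Tsg101 and Vps28 of ESCRT-I, the ATPases Vps4a and Vps4b, and Pdcd6ip were not called in either. Part of this depends on the probe set. With the mean over a gene's probe sets, Vps39 of HOPS was called in neither kind of cell. In that fit Vps4b and Pdcd6ip were called lower in knockdown cells (limma, -0.53, adjusted p = 0.0076, and -0.48, adjusted p = 0.00573). In all, 14 members fell in both kinds of cell, which is 14 of the 16 and of the 18, and Vps36 rose in both. How many of all genes fell in both kinds of cell was not counted, so this overlap and that of HOPS have no background. Vta1 and Chmp3 were called in control cells alone, Hgs, Chmp1b, Chmp4b, Chmp6 and Rab7 in knockdown cells alone, and 16 in neither. For Chmp3 this holds only for its brightest probe set, since both others fell in knockdown cells too. Since the test of the difference called 0 members, none of these is shown to change differently in knockdown cells. The arrays hold bulk RNA, in which fewer cells of a type and less RNA per cell cannot be told apart. Fibroblast markers fell as well, 4 of 6 in control and 6 of 6 in knockdown cells. The log2 difference between 3′ and 5′ signal of the Gapdh control probes, a sign of RNA or amplification quality, was 2.02 to 2.43 at day 0 and 1.24 to 1.79 at day 7 in control arrays, and 1.59 to 1.90 and 1.35 to 1.71 in knockdown arrays, so the days overlapped in knockdown cells alone. The part of either in the results was not tested.

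A gene's other probe sets did not always move with its brightest. In control cells 13 of the 17 called genes had others, and for 11 of them all lay on the same side of 0. In knockdown cells this held for 10 of 14. Another probe set also passed on the same side for 7 of the 13 and for 7 of the 14.

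Some of the control calls were less firm. With the replicate number as a block, 11 of the 17 called genes stayed, all lower (10.1% of all genes were called lower in that fit). Replicate 4, present at day 7 alone, adds nothing to the changes in that fit, so pairing and fewer arrays come together there. Vps36, Chmp2b, Chmp3, Vta1, Vps41 and Vps16 no longer passed. With arrays 1 and 2 averaged, 5 stayed lower (Mvb12a, Ptpn23, Rab27a, Vps11 and Vps18; 4.62% of all genes), and in knockdown cells 10 lower (10% of all genes) and Vps36 higher. Without control day 0 replicate 1 there were 10 calls in control cells (16.5% of all genes), and without replicate 2 of that group 11 (17%), against 22.9% of all genes with every array.

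**Figure D3:**
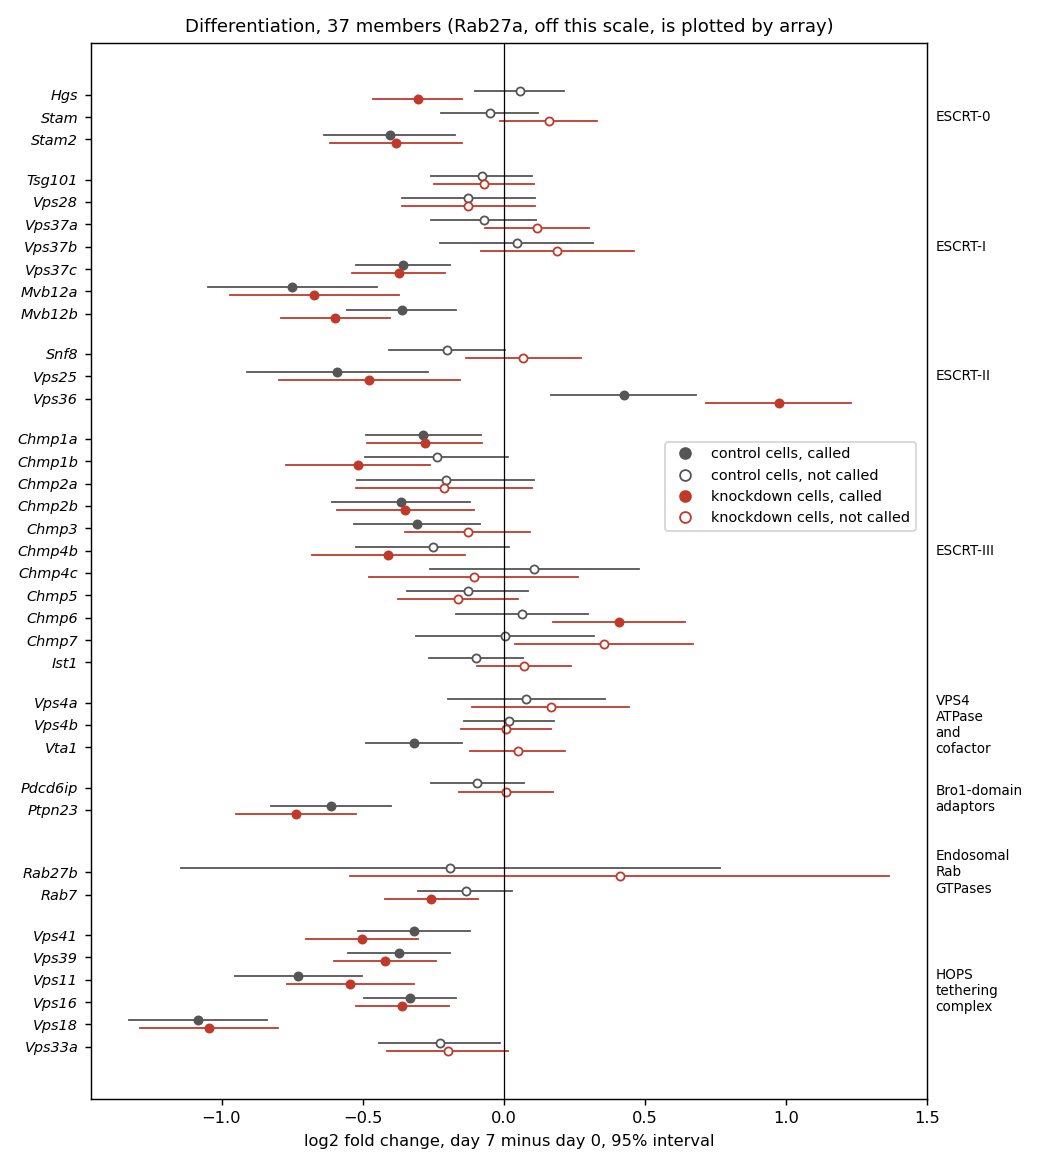
Log2 change from day 0 to day 7 (x axis) with its 95% interval in control cells (grey) and knockdown cells (red) for all the genes but Rab27a, by complex (y axis). Filled points are called; the points lie mostly left of 0, with Vps18 farthest left at -1.08 in control cells, and Vps36 farthest right at 0.98 in knockdown cells.

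ESCRT-0 is a dimer of HGS (also called HRS), which binds ubiquitin and the endosomal lipid PI3P, with STAM or STAM2. Hgs did not stand apart at day 0, at 9.48, 9.57 and 9.43 in control and 9.55, 9.50 and 9.47 in knockdown arrays. At day 7 it stood at 9.55, 9.49, 9.59 and 9.56 in controls and 9.23, 9.20, 9.27 and 9.10 in knockdown cells. All 4 knockdown arrays were low and lay apart from the controls, which were near their day 0 values. With n = 4 per group the change was -0.35 ± 0.068 (adjusted p = 0.0129), and it kept its call in 22 of 24 alternatives. Hgs has 1 probe set, and day 0 arrays do not enter its day 7 difference. Alternatives in the probe set rule or without a day 0 array could therefore alter its adjusted p but not its size. The call was lost with arrays 1 and 2 averaged and with only the day 7 arrays fitted. In knockdown cells Hgs fell with differentiation (-0.30 ± 0.073, adjusted p = 0.00526), while the change in control cells was 0.06 (adjusted p = 0.659). Stam2 went from 9.57, 9.68 and 9.79 to 9.22, 9.16, 9.25 and 9.47 in control cells and from 9.62, 9.60 and 9.87 to 9.41, 9.25, 9.17 and 9.42 in knockdown cells. Every day 7 array was below every day 0 array of its kind. Its change was -0.40 ± 0.11 (adjusted p = 0.0163) in control and -0.38 ± 0.11 (adjusted p = 0.0136) in knockdown cells. Of the 5 other probe sets of Stam2, all were below 0 in control cells and 1 of them passed. In knockdown cells 4 passed as lower and 1 gave 0.30 (adjusted p over probe sets 0.0579).

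ESCRT-I is a rod of TSG101, VPS28, a VPS37 protein and an MVB12 protein. Vps37b, 1 of 3 VPS37 genes measured, was in control arrays at 6.88, 6.95 and 7.10 at day 0 and 6.80, 7.05, 7.22 and 7.03 at day 7. In knockdown arrays it was at 7.05, 7.35 and 7.46 at day 0 and 7.52, 7.56, 7.54 and 7.28 at day 7. The groups overlapped at day 0, and at day 7 all 4 knockdown arrays were higher, replicate 4 being the lowest of them. The difference was 0.45 ± 0.12 (adjusted p = 0.0373) at day 7 and 0.31 ± 0.13 at day 0 (adjusted p = 0.286). The day 7 call held in 12 of 24 alternatives. Of the other VPS37 genes, Vps37c differed by -0.03 between knockdown and control at day 7 (adjusted p = 0.855).

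Vps37c instead fell with differentiation. It went from 11.74, 11.67 and 11.59 to 11.28, 11.37, 11.27 and 11.33 in control and from 11.61, 11.72 and 11.63 to 11.24, 11.37, 11.19 and 11.32 in knockdown cells. The change was -0.36 ± 0.076 (adjusted p = 0.00469) and -0.37 ± 0.076 (adjusted p = 0.00182). The arrays of the 2 days were apart in both. Mvb12a, 1 of the exchangeable MVB12 subunits that can bind ubiquitin, went from 10.45, 10.45 and 10.88 to 9.68, 9.72, 10.06 and 9.93 in control cells. In knockdown cells it went from 10.41, 10.68 and 10.44 to 9.84, 9.77, 10.04 and 9.69. This was the largest change in ESCRT-I, to 59.5% of the day 0 level in control cells (-0.75 ± 0.14, adjusted p = 0.00193) and to 62.8% in knockdown cells (-0.67 ± 0.14, adjusted p = 0.00192). Mvb12b was at 9.97, 9.78 and 9.73 at day 0 and 9.54, 9.51, 9.34 and 9.47 at day 7 in controls, and at 9.91, 9.86 and 9.68 at day 0 and 9.18, 9.28, 9.20 and 9.22 at day 7 in knockdown cells. At day 7 every knockdown array was below every control array (-0.24, adjusted p = 0.0929). Its fall with differentiation was -0.36 ± 0.089 (adjusted p = 0.0106) in control and -0.60 ± 0.089 (adjusted p = 0.000192) in knockdown cells. A dim further probe set of Mvb12b gave 0.32 and 1.11 (adjusted p over probe sets 0.738 and 0.0904). Tsg101, Vps28 and Vps37a were called in no comparison. A second, bright probe set of Vps37a fell in both kinds of cell (-0.48 and -0.68, adjusted p over probe sets 0.0161 and 0.00091), where the brightest gave -0.07 and 0.12.

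ESCRT-II links ESCRT-I to ESCRT-III and is built from VPS36, SNF8 (also VPS22) and VPS25. Snf8 was at 9.54, 9.81 and 9.59 in control and 9.70, 9.82 and 9.61 in knockdown arrays at day 0. At day 7 it was at 9.36, 9.44, 9.51 and 9.47 in control and 9.85, 9.85, 9.62 and 9.79 in knockdown arrays. Knockdown arrays were all high at day 7, replicate 3 nearest to the controls, and overlapped with them at day 0. The day 7 difference was 0.34 ± 0.087 (adjusted p = 0.0407), a call that held in 11 of 24 alternatives. Vps25, the subunit that binds ESCRT-III, was at 9.43, 9.03 and 9.06 at day 0 and 8.45, 8.41, 8.86 and 8.61 at day 7 in control arrays. Its levels in knockdown arrays were 8.70, 8.80 and 8.92 at day 0 and 8.19, 8.10, 8.52 and 8.52 at day 7. Its change with differentiation was -0.59 ± 0.15 (adjusted p = 0.012) in control and -0.48 ± 0.15 (adjusted p = 0.0231) in knockdown cells, both lower. Day 0 knockdown arrays were all below the controls, a difference of -0.36 that did not pass (adjusted p = 0.294).

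Vps36, which binds ubiquitin and PI3P, rose with differentiation, where Vps25 fell. Control arrays stood at 9.85, 9.79 and 10.15 at day 0 and 10.41, 10.46, 10.24 and 10.32 at day 7, a change of 0.43 ± 0.12 (adjusted p = 0.0204). Knockdown arrays stood at 9.48, 9.72 and 9.65 at day 0 and 10.55, 10.77, 10.37 and 10.66 at day 7, a change of 0.98 ± 0.12 (adjusted p = 4.23e-05), to 196.6% of the day 0 level. Knockdown arrays started below the controls at day 0 (-0.32, adjusted p = 0.247). The difference between the knockdown effects of the 2 days, 0.55 ± 0.17, did not pass (adjusted p = 0.202). The probe sets of Vps36 disagree. A second, dimmer one was lower in knockdown cells on both days (-0.76, adjusted p over probe sets 0.0431; -0.63, 0.046) and changed by 0.07 and 0.19 with differentiation.

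ESCRT-III is formed by the small CHMP proteins, which join into filaments on the neck of the bud. None of its 11 genes was called for the knockdown on either day (limma; 1 at day 0 and 4 at day 7 had an unadjusted p under 0.05, against 15.4% and 23.5% of all genes). With differentiation 3 fell in control cells and 4 in knockdown cells, where 1 rose. Chmp1a, of the late-acting CHMP1 pair that recruits VPS4, went from 10.43, 10.54 and 10.49 to 10.13, 10.20, 10.10 and 10.39 in controls and from 10.45, 10.68 and 10.59 to 10.24, 10.34, 10.20 and 10.39 in knockdown cells. It fell in both (-0.29 ± 0.094, adjusted p = 0.0443; -0.28 ± 0.094, adjusted p = 0.0326), with no overlap between days. Chmp1b, the other of that pair, was at 10.52, 10.38 and 10.51 at day 0 and 10.17, 10.12, 10.30 and 10.34 at day 7 in control arrays and at 10.56, 10.53 and 10.64 at day 0 and 9.86, 9.88, 10.34 and 10.16 at day 7 in knockdown arrays. Its fall passed in knockdown cells (-0.52 ± 0.12, adjusted p = 0.00374) and missed the threshold in controls (-0.24, adjusted p = 0.182). The other probe set of Chmp1b gave -0.06 in knockdown and -0.19 in control cells (adjusted p over probe sets 0.692 and 0.174), and neither passed.

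Chmp2b, of the CHMP2 and CHMP3 tier that caps the filament, was in control arrays at 10.83, 10.78 and 10.79 at day 0 and 10.41, 10.38, 10.48 and 10.47 at day 7. In knockdown arrays it was at 10.54, 10.44 and 10.53 at day 0 and 9.94, 9.97, 10.45 and 10.26 at day 7. Day 0 knockdown arrays were all below the controls, and at day 7 replicate 3 alone of the knockdown arrays lay among them. The change with differentiation was -0.36 ± 0.11 (adjusted p = 0.034) in control and -0.35 ± 0.11 (adjusted p = 0.0276) in knockdown cells. Its dimmer probe set gave -0.21 and 0.07, and neither passed. Chmp2a, its paralog, was not called anywhere. It was at 10.17, 10.57 and 10.25 in control and 10.68, 10.87 and 10.45 in knockdown arrays at day 0 (0.33, adjusted p = 0.324). At day 7 it was at 9.95, 10.04, 10.20 and 10.31 in control and 10.58, 10.54, 10.17 and 10.53 in knockdown arrays (0.33, adjusted p = 0.157). Again knockdown replicate 3 lay among the controls and the other arrays above them. Chmp3 was at 9.33, 9.49 and 9.11 at day 0 and 8.88, 8.97, 9.01 and 9.14 at day 7 in control arrays and at 9.38, 9.49 and 9.53 at day 0 and 9.38, 9.45, 9.27 and 9.25 at day 7 in knockdown arrays. It fell in control cells by 0.31 (adjusted p = 0.0473), with 1 day 0 array inside the day 7 range, and every day 7 knockdown array lay above every control (0.34, adjusted p = 0.053). The probe sets of Chmp3 disagree. A second one, nearly as bright, gave -0.16 between knockdown and control at day 7 (adjusted p over probe sets 0.47) and fell with differentiation in control (-0.51, 0.00883) and knockdown cells (-0.60, 0.00148). The dimmest one fell too (-0.81, 0.0203; -1.02, 0.00271).

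Chmp4b, the main filament-forming CHMP, was at 11.91, 11.87 and 11.91 at day 0 and 11.65, 11.61, 11.75 and 11.58 at day 7 in control arrays. In knockdown arrays it was at 11.78, 11.65 and 11.88 at day 0 and 11.28, 11.26, 11.75 and 11.15 at day 7. Replicate 3 of the day 7 knockdown arrays was as high as the highest control, and the other 3 were low. Its fall passed in knockdown cells (-0.41 ± 0.13, adjusted p = 0.0211), a call that held in 14 of 24 alternatives. In controls the days were apart but the fall did not pass (-0.25, adjusted p = 0.184). The other probe set of Chmp4b gave -0.33 in knockdown and -0.35 in control cells (adjusted p over probe sets 0.155 and 0.18), and neither passed. Chmp6, which links ESCRT-II to Chmp4b and seeds the filament, rose in knockdown cells from 8.21, 8.15 and 8.27 to 8.83, 8.64, 8.48 and 8.50 (0.41 ± 0.11, adjusted p = 0.0096). In controls it stood at 8.46, 8.29 and 8.29 at day 0 and 8.57, 8.51, 8.30 and 8.27 at day 7, overlapping between days (0.07, adjusted p = 0.742). Chmp4c, a dim gene here, was at 4.42, 4.24, 4.69 and 4.88 in control and 4.17, 4.19, 3.97 and 4.54 in knockdown arrays at day 7 (-0.34, adjusted p = 0.223). Chmp7, which also acts at the nuclear envelope, was at 7.99, 8.24 and 7.73 in control and 7.85, 7.95 and 7.47 in knockdown arrays at day 0 (-0.23, adjusted p = 0.54). Both sets of values overlapped. Chmp5 and Ist1 were not called in any comparison.

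Knockdown replicate 3 of day 7, which stood near the controls for Chmp2a, Chmp2b and Chmp4b, also had the lowest fat marker mean of its group (11.14, the others 11.88 to 12.18) and the highest fibroblast marker mean (12.64, the others 11.90 to 12.01). Control replicate 3 of day 7 likewise had the lowest fat marker mean of its group (10.18) and the highest fibroblast marker mean (12.88). The part of these differences in the results was not tested. Without knockdown replicate 3, and with control replicate 3 still in the fit, 15.9% of all genes were called at day 7, against 6.58% with every array. In that fit 8 members passed (limma): the 4 above with Chmp2a (0.43, adjusted p = 0.045), Chmp3 (0.36, 0.0374), Chmp2b (-0.38, 0.0133) and Chmp4b (-0.42, 0.00599). Over all 24 alternatives their adjusted p reached 0.465, 0.912, 0.435 and 0.463. Chmp2a, Chmp2b and Chmp4b passed in this alternative alone and Chmp3 in 4.

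The ATPase VPS4 takes ESCRT-III apart, and VTA1 activates it. Vta1 was at 10.84, 10.84 and 10.84 in control and 10.49, 10.65 and 10.57 in knockdown arrays at day 0, apart and lower in the knockdown (-0.27 ± 0.084, adjusted p = 0.141). At day 7 it was at 10.55, 10.62, 10.47 and 10.44 in controls and 10.67, 10.68, 10.62 and 10.51 in knockdown arrays. It fell in control cells (-0.32 ± 0.078, adjusted p = 0.0106) and in knockdown cells changed by 0.05 (adjusted p = 0.698). The difference between the days in the knockdown effect, 0.37, did not pass (adjusted p = 0.194). A second, dimmer probe set of Vta1 was lower in knockdown cells at day 7 (-1.26, adjusted p over probe sets 0.00956), where the brighter one gave 0.10. Vps4a and Vps4b were called in no comparison. Both dimmer probe sets of Vps4b, however, fell in knockdown cells (-0.72 and -0.87, adjusted p over probe sets 0.0114 and 0.00537).

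PTPN23 (HD-PTP) and PDCD6IP (ALIX) are adaptors whose Bro1 domain binds CHMP4. Ptpn23 was at 11.38, 11.43 and 11.39 in control and 11.36, 11.39 and 11.20 in knockdown arrays at day 0, and at 10.76, 10.91, 10.82 and 10.66 in control and 10.63, 10.53, 10.77 and 10.39 in knockdown arrays at day 7. All day 7 arrays were below all of day 0, at 65.4% of the day 0 level in control (-0.61 ± 0.099, adjusted p = 0.000775) and 60.1% in knockdown cells (-0.74 ± 0.099, adjusted p = 8.77e-05). Pdcd6ip was not called by its brightest probe set (-0.09 in control and 0.01 in knockdown cells). A pair of its dimmer probe sets fell by 1.21 and 1.42 on the log2 scale in knockdown cells (adjusted p over probe sets 0.000288 and 0.000587) and gave -0.63 and -0.69 in control cells (0.0334 and 0.0672). The difference between these changes did not pass (0.349 and 0.369).

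Rab27a, a GTPase that docks secretory organelles, multivesicular bodies among them, at the plasma membrane, had the largest change of all members. Control arrays were at 8.64, 9.17 and 7.77 at day 0 and at 4.62, 4.32, 4.60 and 4.60 at day 7. Knockdown arrays were at 8.65, 8.39 and 9.20 at day 0 and 4.88, 4.73, 4.78 and 5.26 at day 7. At day 7 every array was below its own median over all probe sets (5.44 to 5.57), and levels fell 15.9-fold in control cells (-3.99 ± 0.28, adjusted p = 3.5e-06) and 14.2-fold in knockdown cells (-3.83 ± 0.28, adjusted p = 1.25e-06). Since this method compresses changes of dim genes, both folds may be understated. Its 3 other probe sets were dim on average (3.48 or less), and their changes, from -0.53 to -0.22, were not called. At day 7 every knockdown array was above every control (0.38 ± 0.26), which did not pass (adjusted p = 0.417).

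Rab27b, its paralog, was called in no comparison. It was at 5.15, 5.07, 6.27 and 4.72 in control and 5.08, 5.70, 7.10 and 5.20 in knockdown arrays at day 7, replicate 3 being the highest of each group (0.47 ± 0.41, adjusted p = 0.548). Its change with differentiation was -0.19 in control cells (adjusted p = 0.825). Rab7, the GTPase of late endosomes that works with HOPS, was at 12.87, 12.91 and 12.95 at day 0 and 12.78, 12.71, 12.80 and 12.81 at day 7 in control arrays. In knockdown arrays it was at 12.93, 12.84 and 13.02 at day 0 and 12.60, 12.59, 12.75 and 12.74 at day 7. Days were apart in both, with a fall that passed in knockdown cells (-0.26 ± 0.077, adjusted p = 0.0191) and not in controls (-0.14, adjusted p = 0.252).

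HOPS consists of a core of VPS11, VPS16, VPS18 and VPS33A, which it shares with the earlier-acting CORVET complex, and of VPS39 and VPS41, which bind the membranes to be joined. Vps41 was at 11.79, 11.81 and 11.81 in control and 11.65, 11.69 and 11.62 in knockdown arrays at day 0, and at 11.50, 11.54, 11.48 and 11.42 in control and 11.09, 11.00, 11.41 and 11.13 in knockdown arrays at day 7. Knockdown arrays were lower on both days, with replicate 3 of day 7 just under the lowest control. The difference was -0.15 at day 0 (adjusted p = 0.538) and -0.33 ± 0.085 (adjusted p = 0.0396) at day 7. This call held in 7 of 24 alternatives, the fewest among the 4 called genes, against 11 for Snf8, 12 for Vps37b and 22 for Hgs. Vps41 alone of these 4 has other probe sets, so the probe set rule can change its value and not theirs. With differentiation Vps41 fell too (-0.32 ± 0.092, adjusted p = 0.0248 in control, -0.50 ± 0.092, adjusted p = 0.000869 in knockdown cells). Its dimmer probe sets also fell with differentiation (-0.53 and -0.81 in control cells) but differed by -0.16 and -0.27 between knockdown and control at day 7, which did not pass.

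Vps39, the other membrane-binding subunit, was at 9.88, 9.84 and 9.82 at day 0 and 9.46, 9.43, 9.51 and 9.52 at day 7 in control arrays. Knockdown arrays were at 9.88, 9.93 and 9.71 at day 0 and 9.33, 9.55, 9.33 and 9.48 at day 7. The days were apart in both (-0.37 ± 0.083, adjusted p = 0.0066; -0.42 ± 0.083, adjusted p = 0.00146). The dimmer probe set of Vps39 gave 0.25 and 0.18, and with the mean over both the changes were -0.06 and -0.12 and neither passed (adjusted p = 0.796 and 0.489). Vps11 went from 9.96, 10.17 and 10.12 to 9.43, 9.50, 9.25 and 9.24 in control and from 9.92, 10.13 and 9.80 to 9.46, 9.50, 9.35 and 9.31 in knockdown cells. It fell to 60.4% and 68.6% of its day 0 level (-0.73 ± 0.10, adjusted p = 0.000334; -0.54 ± 0.10, adjusted p = 0.00118). Vps18, which joins VPS11 in the core, had the largest fall in HOPS. It went from 7.78, 7.87 and 7.82 to 6.68, 6.88, 6.79 and 6.62 in control cells and from 7.76, 7.88 and 7.71 to 6.74, 7.00, 6.75 and 6.49 in knockdown cells. That left 47.2% of the day 0 level in control (-1.08 ± 0.11, adjusted p = 3.75e-05) and 48.5% in knockdown cells (-1.04 ± 0.11, adjusted p = 1.71e-05).

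Vps16 was at 10.41, 10.41 and 10.39 in control and 10.61, 10.66 and 10.68 in knockdown arrays at day 0, and at 10.05, 10.02, 10.20 and 10.02 in control and 10.33, 10.38, 10.25 and 10.20 in knockdown arrays at day 7. Knockdown arrays lay higher on each day, though control replicate 3 and knockdown replicate 4 of day 7 both round to 10.20. The difference was 0.24 at day 0 (adjusted p = 0.163) and 0.22 at day 7 (adjusted p = 0.0816), which did not pass on either day. With differentiation it fell by 0.33 in control (SE 0.076, adjusted p = 0.00695) and by 0.36 in knockdown cells (SE 0.076, adjusted p = 0.00222). Vps33a, the subunit that holds SNARE proteins, was the HOPS gene not called (-0.23 in control and -0.20 in knockdown cells). Of the 2 HOPS genes printed above with CACGTG, Vps16 was thus called lower with differentiation and Vps33a was not called.

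**Figure D4:**
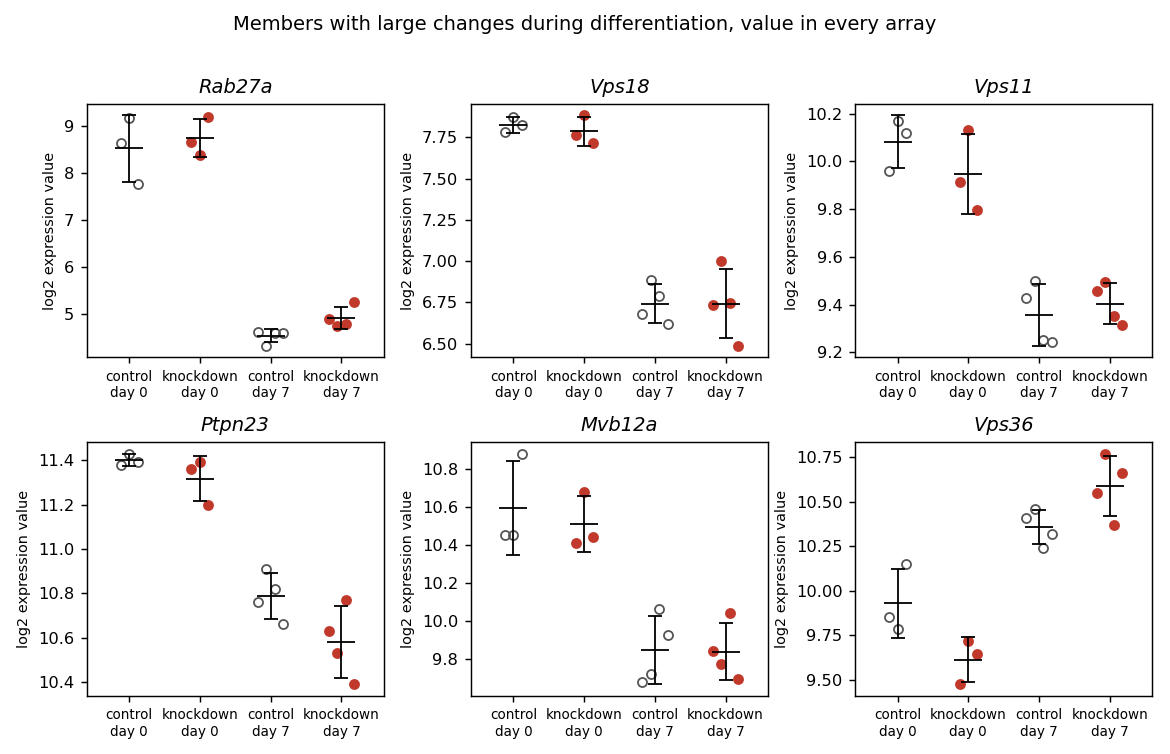
Log2 expression value (y axis) in every array of the 4 groups (x axis) for 6 genes with large changes between day 0 and day 7; open points are control arrays, filled points knockdown arrays, bars the mean ± SD (3 arrays per group at day 0, 4 at day 7), each panel on its own scale. Rab27a, Vps18, Vps11, Ptpn23 and Mvb12a lie lower at day 7 in both kinds of cell, and Vps36 lies higher.

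The 10 members not described by value, Stam, Tsg101, Vps28, Vps37a, Chmp5, Ist1, Vps4a, Vps4b, Pdcd6ip and Vps33a, differed between knockdown and control by -0.23 (Stam) to 0.20 (Vps33a) at day 0 and by -0.13 (Chmp5) to 0.23 (Vps33a) at day 7. With differentiation they changed by -0.23 to 0.08 in control and by -0.20 to 0.17 in knockdown cells. In none of these comparisons was any of the 10 called, the lowest adjusted p being 0.127.

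The 4 calls at day 7 depend on how the arrays are counted. As with arrays 1 and 2 averaged, fitting only the day 7 arrays left 0, with 1.83% of all genes called. Over the 24 alternatives the adjusted p of Hgs ran from 0.00522 to 0.16, that of Vps37b from 0.0202 to 0.227, that of Snf8 from 0.0126 to 0.236 and that of Vps41 from 0.00303 to 0.506. Only Hgs passed without control day 7 replicate 1, 2 or 4 or knockdown day 7 replicate 1 or 2 (2.03% to 4.76% of all genes in those fits). Without control day 7 replicate 3 or knockdown day 7 replicate 4, and without control day 0 replicate 2 or knockdown day 0 replicate 1 or 2, 2 genes passed, Hgs and either Vps37b or Snf8 (2.53% to 5.35% of all genes). Each group's ratio of 3′ to 5′ signal of the beta-actin control probes, the other such sign, also differed at day 0: the log2 difference was 3.33 to 3.76 in control and 2.74 to 3.23 in knockdown arrays. Its part in the results was not tested. Fibroblast markers moved with the knockdown at day 7 as well, with 3 of 6 called lower (range of array means 12.50 to 12.88 in control and 11.90 to 12.64 in knockdown cells), and 0 of 5 fat markers called, all of them above 0. Their part in the results was not tested.

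Other genes of the pathway were read from 4 lists: further ESCRT adaptors and deubiquitinases (21 measured), CORVET, CHEVI and RAB7 regulators (16), exosome cargo and release (18), and retromer and endosomal lipids (17). Of these 72 measured, out of 76 listed, none was called at day 0 (limma; 14 had an unadjusted p under 0.05, against 15.4% of all genes), and 2 were called higher and 2 lower at day 7, against 3.01% and 3.57% of all genes. Vps8, a subunit of CORVET alone, was lower (-0.37 ± 0.092, adjusted p = 0.033), as was Sdc2, a syndecan of exosome formation (-0.64 ± 0.15, adjusted p = 0.0302). Uvrag, a partner of the lipid kinase VPS34 that also binds the HOPS core, was higher (0.33 ± 0.091, adjusted p = 0.049), as was Rab35, a GTPase of endosome recycling (0.49 ± 0.13, adjusted p = 0.0454). With differentiation 18 of the 72 fell and 2 rose in control cells, and 22 fell and 5 rose in knockdown cells. Over all genes 12.8% fell and 10.1% rose in control cells, and 16.8% fell and 19% rose in knockdown cells. Their median change was -0.18 and -0.17, against -0.22 and -0.21 in the 38 members.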

How the data were processed

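Total RNA of 14 samples was amplified, labelled with biotin and hybridised to 1 expression array each. The deposited table holds a log2 value for each probe set on each array. RMA, which corrects background, normalizes by quantiles and sums up probes, and affy are named in the submitters' processing notes, without a version that the sources used here give. A log base of 2 was read from the range of the values (1.13 to 14.37). RMA compresses changes of dim genes, and no detection call was used.

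Of 45101 probe sets, 64 controls, 932 with several gene symbols and 9160 unnamed here were left out, and the brightest of the rest stood for each of 18193 genes. A RefSeq table (GRCm38.p6, used for names) was matched by gene ID, and 0 symbols needed an update. 1 mean per group over all 14 arrays was fitted by lmFit and eBayes of limma 3.58.1 (R 4.3.3; 12.6 degrees of freedom), with 5 contrasts and Benjamini-Hochberg adjustment over the 18193 genes. Errors are standard errors of that fit, whose precision is limited by the number of arrays. The fit was tested on simulated data. The 24 alternatives leave out each array in turn or change the probe set rule, scaling, filter, block, treatment of arrays 1 and 2, or arrays fitted.

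The labels number the replicates without saying what they share. Deviations of same-numbered arrays from their group means correlated by 0.187 to 0.331 at day 0, 0.389 to 0.59 at day 7 and 0.136 to 0.21 between days in control cells. In knockdown cells, between days, the values were 0.032 to 0.177. The main fit pairs no arrays. The fit with the replicate number as a block pairs same-numbered arrays in each contrast, also between days in knockdown cells. Replicate 4 has no day 0 array to pair with. In that fit it adds nothing to the changes with differentiation, which rest on replicates 1 to 3 of each kind of cell.

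Each member called in any contrast was given with its value in every array. Of the others, the 2 with the largest knockdown change on each day were named with values, and the rest by range. The members and lists were chosen with earlier results of these data known.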

Additional observations from a re-analysis of the deposited data

Results flagged for a closer look

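In 76 sets of 4 arrays (38 members in control and in knockdown cells at day 7), 6 held 1 array far from the other 3 for the size of the group. Chance alone marks about 1 in 20 sets in this way, and these are 6 of 76. Rab27a was at 4.32 in control replicate 2, and the nearest other array was at 4.60. Vps16 was at 10.20 in control replicate 3, the nearest other being at 10.05. Vps37b was at 7.28 in knockdown replicate 4, with the nearest other at 7.52. Chmp2a was at 10.17 in knockdown replicate 3, below the others (nearest 10.53), and Vps4b was at 11.76 in the same array, above the others (nearest 11.67). Pdcd6ip was at 10.92 in knockdown replicate 4, under the nearest other at 11.09. Without knockdown replicate 3, Chmp2a passed at day 7 (0.43, limma adjusted p = 0.045, against 0.045 to 0.465 over the 24 alternatives).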

How the results depend on the processing

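At day 0 the count of members called was 0, and 1 (Vta1) with all arrays shifted to 1 median. At day 7 the count of 4 became 1 with every probe set tested, for which no share of all genes was counted. It was 7 without the dimmest 40% of genes, where Mvb12b, Chmp3 and Vps16 joined and 16.8% of the genes left were called. It was 0 with replicates 1 and 2 averaged (0.352% of all genes) and 0 with only the groups compared in the fit (1.83%). With 1 array left out it ranged from 1 to 8 (2.03% to 15.9% of all genes). In control differentiation 17 became 11 with the replicate block (19.4% of all genes called) and 5 with replicates 1 and 2 averaged (8.71%). With 1 array left out it was 10 to 18 (16.5% to 25%), against 22.9% of all genes with every array. In knockdown differentiation 20 became 11 with replicates 1 and 2 averaged (22.5% of all genes called) and 16 with the block (31.7%). The replicate block gave the same 4 calls at day 7 and 0 at day 0, while over all genes it moved the calls from 1197 to 2680 at day 7 and, at day 0, from 85 higher and 243 lower to 225 higher and 619 lower. The difference between the knockdown effects gave 0 calls among the members in every fit run; over all genes the block moved it from 4 to 196.

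The choice of probe set turned some directions. With a gene's most variable probe set (by interquartile range), Vta1 at day 7 was -1.26, Mvb12b changed by 0.32 in control and 1.11 in knockdown differentiation, and Vps37a (-0.68), Vps4b (-0.87) and Pdcd6ip (-1.42) fell in knockdown differentiation. With the mean over a gene's probe sets Vta1 was -0.58, Vps4b -0.53 and Pdcd6ip -0.48. Averaging replicates 1 and 2 leaves fewer samples, and the cause of the other changes was not tested.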

Other observations

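Among the further genes of the pathway, 2 with large changes during differentiation were picked after their values were seen. Cep55, which brings ALIX and TSG101 to the bridge between dividing cells, rose by 2.40 ± 0.30 (SE) on the log2 scale in control cells (limma, adjusted p = 0.000141) and by 3.30 ± 0.30 in knockdown cells (adjusted p = 5.12e-06). Pikfyve, the lipid kinase that makes PI(3,5)P2 on late endosomes, changed by -0.74 ± 0.082 in control cells (adjusted p = 5.43e-05) and by -0.92 ± 0.082 in knockdown cells (adjusted p = 4.33e-06).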
